A study of Mus musculus with 17 samples.

Results

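The genes described here are 10 markers of microglia and other macrophages, measured in cells sorted from the postnatal mouse brain after the progenitors of a ventricular wall had been labelled by electroporation. They are Tyrobp, Csf1r, Cx3cr1, C1qa, C1qb, C1qc, Cd68, Mpeg1, Aif1 and Pf4. They were chosen by gene name among the 30030 genes named on the array, and all 10 were found, with 15 probes, and passed the filter on dim probes together with 26458 genes in all. The study followed the dorsal and the lateral lineage of the subventricular zone (SVZ), the postnatal germinal layer that sends neuroblasts to the olfactory bulb, on 17 Agilent arrays of 2 colours.

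The mice were of the CD1 strain and were electroporated in vivo at postnatal day 1. A fluorescence-activated cell sorter then collected the GFP-positive cells at 8 hours (2 arrays) or at 1 day (3), 2 days (2), 4 days (3), 7 days (3) or 14 days (4). Each array held progeny of dorsal wall progenitors in Cy3 beside progeny of lateral wall progenitors of the same time in Cy5. The dyes were never swapped, so a constant dye effect of a probe adds to each dorsal minus lateral difference, while it cancels between times. The labels call the arrays of a time biological replicates. The plasmid and its promoter, the number of mice or cells in a sample and any gate on immune cells are not given in the sources used here. Amplification was a commercial global PCR of cDNA with an undisclosed protocol, and the labels name the RNA of the dorsal channel polyA RNA and that of the lateral channel total RNA. In such bulk samples, fewer cells of a type and less RNA per cell cannot be told apart.

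As background, microglia are the resident macrophages of the brain parenchyma. They enter the brain in the embryo, expand after birth, and depend on signalling through the receptor encoded by Csf1r. They take up dying cells and debris in germinal layers such as the SVZ, and they are the main source in the brain of C1q, the recognition molecule of the classical complement pathway. Other macrophages live at the borders of the brain, in the meninges, the choroid plexus and around vessels, and in the mouse these express Pf4, a chemokine first known from platelets.

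The 3 probes printed first are shown because the results on complement and on the walls turn on them, and they are given as designed for the array, with mm9 coordinates. Exon and UTR positions were not annotated here.
C1qa, chr4:136452409-136452468, minus strand: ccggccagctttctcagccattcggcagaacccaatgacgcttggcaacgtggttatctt
C1qb, chr4:136436578-136436637, minus strand: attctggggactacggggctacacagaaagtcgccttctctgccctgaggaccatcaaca
Tyrobp, chr7:31200651-31202378, plus strand: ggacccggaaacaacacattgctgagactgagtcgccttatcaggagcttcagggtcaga
The interval of the Tyrobp probe is longer than its 60 bases, so its letters are not contiguous in the genome.

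Spi1 (PU.1), the transcription factor that myeloid cells require, binds purine-rich sites around GAGGAA. RefSeq promoters of GRCm38.p6 were at hand for 7 of the 10 genes, and the 250 bases before the start were searched on both strands. The short form, which lies within the longer motif GAGGAAGT, was present in 5 of the 7 (Aif1, C1qb, C1qc, Cd68 and Pf4), against 23.3% of 32851 promoters. The longer motif was present in 2 of them, C1qc and Pf4, against 2.44% of promoters. The core motif of GATA factors, AGATAA, was present in Mpeg1 alone of the 7, against 9.99% of promoters. The motif TATAAA was present in none of them, against 12.4% of promoters. These 2 promoters are printed because they alone of the 7 held the longer motif. The capitals mark GAGGAAGT, here read on the opposite strand as ACTTCCTC.
Pf4, chr5:90772185-90772434, plus strand: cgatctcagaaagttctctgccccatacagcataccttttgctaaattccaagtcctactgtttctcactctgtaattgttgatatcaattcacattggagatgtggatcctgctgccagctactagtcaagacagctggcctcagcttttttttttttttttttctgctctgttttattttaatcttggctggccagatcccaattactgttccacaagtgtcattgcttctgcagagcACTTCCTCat
C1qc, chr4:136892915-136893164, minus strand: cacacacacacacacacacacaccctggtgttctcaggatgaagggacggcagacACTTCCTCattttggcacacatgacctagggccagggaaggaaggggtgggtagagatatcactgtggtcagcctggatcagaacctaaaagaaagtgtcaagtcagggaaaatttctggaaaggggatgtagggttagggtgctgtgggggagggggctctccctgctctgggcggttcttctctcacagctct
The match begins 10 bases before the start in Pf4 and 195 bases before the start in C1qc. These matches describe letters and not sites of binding.

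The share of probes well above background was 41.5 to 77.0% in dorsal channels and 56.8 to 79.7% in lateral channels, and no spot was saturated. Median probe signals were 30.3 to 310 in the dorsal channel and 122 to 601 in the lateral channel. The labelled cells carried their neural markers throughout: 11 or 12 of 12 neural progenitor and neuroblast genes, Sox2 and Nes among them, were well above background in every sample. Of the 10 macrophage genes, 7 to 10 were well above background in every sample. The arrays that stood apart were 1 day replicate 1 and 14 days replicate 2, whose median correlations with the other arrays were 0.69 and 0.77, against 0.85 to 0.92 for the rest. The arrays lay on 5 slides. The 1 day arrays filled one slide and the 14 days arrays another, so slide and time cannot be told apart for these times, while 8 hours, 2, 4 and 7 days shared 3 slides. On 14 days replicate 1 the scanner software flagged the spots of Csf1r, C1qa, C1qc, Cd68 and Mpeg1 as non-uniform, and the levels at 14 days of these 5 genes therefore rest on 3 arrays. The values of those flagged spots were among the brightest of the time course, between 14.60 and 16.47 on the log2 scale, and each call that rests on them is given both ways.

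Levels are log2 intensities after normalization, and time courses are given on the mean of both walls of an array unless a wall is named. The macrophage genes did not move along a single slope. In all genes but Pf4 the mean was high at 8 hours, lower at 1 day and higher again at 2 days. It was lower again at 4 days and high at 7 days. Most of these genes were very unequal between arrays at 1 day and at 14 days. Aif1 at 1 day was below its 8 hours arrays on replicate 2 alone, at 9.64. Mpeg1 was less unequal at 1 day (SD 0.84). Its measured arrays of 14 days lay between 9.06 and 10.77, below those of all other times. C1qc lay between 11.18 and 12.19 on its measured arrays of 14 days. Pf4 moved in the same directions up to 7 days, from a much dimmer start. It averaged 8.09 at 8 hours, 7.03 at 1 day, 8.61 at 2 days and 14.35 at 7 days. At 4 days its mean signal was 6.13, with no spot well above background. The mean over the measured members of a sample lay between 13.18 and 14.64 in 8 hours samples, 8.07 and 12.70 in those of 1 day, 13.06 and 14.81 in those of 2 days, 9.08 and 11.66 in those of 4 days, 13.61 and 15.26 in those of 7 days, and 8.78 and 16.26 in those of 14 days. The highest of these, on 14 days replicate 1, is over the 5 genes whose spots were not flagged there. The mean of the 12 neural genes moved less, between 11.57 and 13.57 over all samples of all 6 times.

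**Figure D1:**
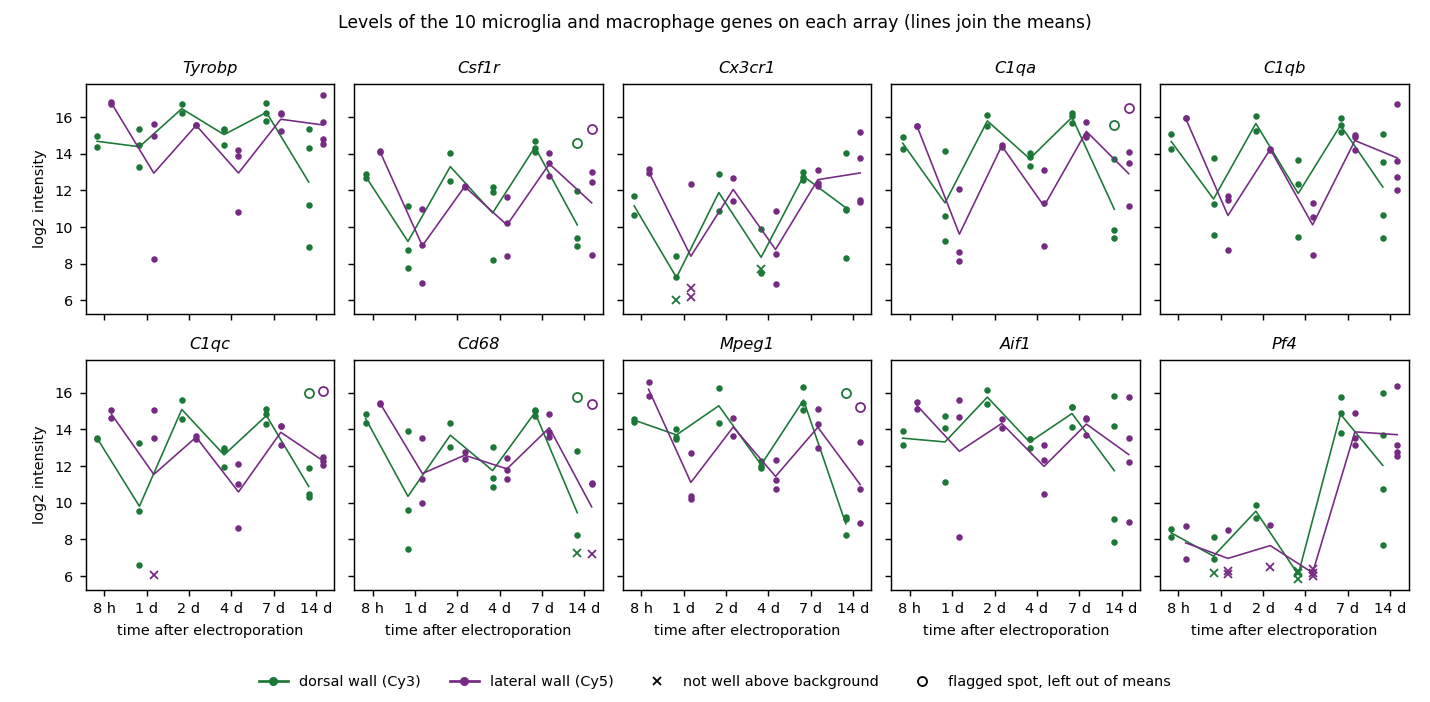
Log2 intensity (y axis) of each gene on each array, dorsal left of lateral at each time after electroporation (x axis), with lines through the means, crosses where a spot was not well above background and open circles for spots flagged by the scanner software. All samples of the 10 genes are bright at 7 days, while 4 days is dim for most of them, and Pf4 alone sits at background at 4 days.

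Over the 6 times, limma's F test with Benjamini-Hochberg adjustment over all genes called 6 of the 10 genes, where 7.53% of all genes were called. These were Mpeg1 (adjusted p = 0.000502), Pf4 (0.00151), Csf1r (0.0258), Cx3cr1 (0.0355), C1qa (0.0381) and C1qb (0.0436). Cd68 (0.0633), C1qc (0.284), Tyrobp (0.38) and Aif1 (0.628) did not pass. Keeping the flagged spots left 3 genes called, Pf4 (adjusted p = 0.00146), Cx3cr1 (0.0359) and C1qb (0.0442), where 7.33% of all genes were called, while Mpeg1 stood at 0.142, Csf1r at 0.109 and C1qa at 0.11. Leaving out any 1 of the 17 arrays kept the calls of Mpeg1 and Pf4, with adjusted p between 0.00037 and 0.00326 for Mpeg1. Csf1r was called in 8 of these 17 fits, Cx3cr1 and C1qa in 5 each, and C1qb in 4. Cd68 was called without 1 day replicate 3 (0.0119) or 14 days replicate 3 (0.0234), and C1qc without 1 day replicate 2 (0.0144). Omitting either 8 hours array, 1 day replicate 1, 2 days replicate 1, 4 days replicate 1 or 3, or any 7 days array left 2 members called, and omitting 2 days replicate 2 left 3. Between 3.97% and 9.8% of all genes were called in the 17 fits.

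The same F test, over all 17 arrays, called some genes of the related lists, where 7.53% of all genes were called. In lists this short, a count of 0 or 2 is near that share and does not set a list apart. It called 7 of 12 activated microglia genes, among them the integrin gene Itgax (adjusted p = 0.00672) and Gpnmb (0.0137), a membrane glycoprotein of phagocytes. It called 2 of 14 homeostatic microglia genes, the purine receptor gene P2ry12 (0.0133) and Selplg (0.0348), the gene of a selectin ligand, and 2 of 18 general myeloid genes, the phagocytic receptor gene Mertk (0.0117) and Spi1 (0.0252). Of 10 border macrophage genes Cbr2 (0.0423), the lectin gene Clec10a (0.0257) and Cd209f (0.0356) were called. Of 11 ligands and partners C4b (0.000345), C3ar1 (0.00416) and C1ra (0.0351) were, and of 6 platelet genes none was, with Gp9 alone under an unadjusted p of 0.05 (adjusted p = 0.0508). Genes of other cells were called too, 5 of 8 monocyte and neutrophil genes, 8 of 12 neural genes and 2 of 5 erythroid genes, while 0 of 8 lymphocyte genes and 0 of 7 endothelial genes were, with Cdh5 alone of these under an unadjusted p of 0.05 (adjusted p = 0.233).

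Tyrobp encodes the adaptor DAP12, which carries the signals of TREM2 and related receptors of myeloid cells. It averaged 15.72 ± 0.25 on the 8 hours arrays, 13.66 ± 2.02 on those of 1 day, 16.01 ± 0.18 on those of 2 days, 14.00 ± 1.19 on those of 4 days, 16.07 ± 0.12 on those of 7 days and 14.01 ± 1.92 on those of 14 days (SD, n = 2, 3, 2, 3, 3 and 4). The levels at 8 hours, 2 days and 7 days were close to each other, and those at 1, 4 and 14 days differed from each other by less than their spread.

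Csf1r, the receptor for the growth factors CSF1 and IL-34 on which microglia depend, had 13.38 and 13.50 on the 8 hours arrays, 8.89, 7.35 and 11.06 on those of 1 day, 13.16 and 12.36 on those of 2 days, 9.94, 11.07 and 10.32 on those of 4 days, 13.56, 14.09 and 14.07 on those of 7 days, and 8.73, 12.23 and 11.20 on the 3 measured arrays of 14 days. On this brightest probe, all arrays of 8 hours, 2 days and 7 days lay above all measured arrays of the other times. The flagged spot of 14 days replicate 1, at 14.60 in the dorsal and 15.34 in the lateral channel, would lie above them. Another Csf1r probe did not separate 2 days in this way. It averaged 11.50 in the dorsal and 9.78 in the lateral wall at 2 days, with a lowest sample of 8.79. Its samples reached 10.73 at 1 day and 15.63 at 14 days.

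Cx3cr1, the receptor through which microglia sense the neuronal chemokine fractalkine, had 12.31 and 11.89 on the 8 hours arrays, 6.99, 6.12 and 10.38 on those of 1 day, 12.79 and 11.15 on those of 2 days, 9.19, 8.11 and 8.40 on those of 4 days, 12.68, 12.51 and 12.85 on those of 7 days, and 14.60, 12.37, 11.15 and 9.90 on those of 14 days. Its order was 1 day, 4 days, 2 days, 14 days, 8 hours and 7 days, and the arrays of 2 days, 14 days and 8 hours overlapped, while those of 8 hours and 7 days did not. At 1 and 4 days some of its spots were not well above background.

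The 3 chains of C1q share a cluster on chromosome 4 and are made in the same cells. C1qb, the one whose course was most like the rest, had 15.12 and 15.50 on the 8 hours arrays, 11.37, 9.14 and 12.74 on those of 1 day, 15.16 and 14.74 on those of 2 days, 12.13, 10.40 and 10.41 on those of 4 days, 15.07, 15.29 and 15.05 on those of 7 days, and 15.92, 11.36, 13.13 and 11.51 on those of 14 days. All arrays of 8 hours, 2 days and 7 days lay above all arrays of 1 and 4 days, and the 14 days arrays reached into both ranges.

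C1qa averaged 15.04 ± 0.24 on the 8 hours arrays, 10.47 ± 2.34 on those of 1 day, 15.11 ± 0.17 on those of 2 days, 12.44 ± 1.22 on those of 4 days, 15.61 ± 0.27 on those of 7 days and 11.94 ± 1.75 on those of 14 days (SD, n = 2, 3, 2, 3, 3 and 3). C1qc averaged 14.18 ± 0.17, 10.68 ± 3.81, 14.34 ± 0.30, 11.60 ± 1.15, 14.30 ± 0.31 and 11.59 ± 0.53 at the same times, with the same numbers of arrays. Both chains thus had small spreads at 8 hours, 2 days and 7 days, and over the measured arrays their largest at 1 day. The flagged spots of 14 days replicate 1 are left out of this ranking. They stood at 15.54 and 16.47 for C1qa and at 15.99 and 16.08 for C1qc (dorsal and lateral), above the measured arrays of that time.

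Mpeg1 encodes perforin-2, a pore-forming protein of macrophage phagosomes. It had 15.21 and 15.50 on the 8 hours arrays, 11.94, 11.91 and 13.37 on those of 1 day, 15.44 and 13.99 on those of 2 days, 12.11, 11.63 and 11.52 on those of 4 days, 14.22, 15.29 and 15.08 on those of 7 days, and 9.06, 9.95 and 10.77 on the 3 measured arrays of 14 days. Those 3 arrays were the dimmest of all, and the flagged spot of 14 days replicate 1, at 15.99 in the dorsal and 15.23 in the lateral channel, was among the brightest.

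Cd68, a glycoprotein of macrophage lysosomes, averaged 15.01 ± 0.20 on the 8 hours arrays, 10.97 ± 2.39 on those of 1 day, 13.14 ± 0.59 on those of 2 days, 11.81 ± 0.83 on those of 4 days, 14.51 ± 0.27 on those of 7 days and 9.62 ± 2.36 on those of 14 days (SD, n = 2, 3, 2, 3, 3 and 3). Aif1, the gene of the actin-bundling protein IBA1 that is widely used to stain microglia, averaged 14.41 ± 0.13, 13.06 ± 2.96, 15.05 ± 0.09, 12.65 ± 0.80, 14.58 ± 0.27 and 12.19 ± 3.18 at the same times (SD, n = 2, 3, 2, 3, 3 and 4). Aif1 had its largest spreads at 1 day, where replicate 2 stood at 9.64 and the others above 14, and at 14 days, where replicate 2 stood at 9.06 and replicate 1 at 15.80.

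From 8 hours to 1 day, Mpeg1 alone fell by the test (-2.95 ± 0.61 SE on the log2 scale, limma adjusted p = 0.0356), where 1.42% of all genes were called. The median difference of the 10 genes was -3.77, against 0.21 over all genes tested, and C1qa (-4.57 ± 1.19), Csf1r (-4.34 ± 1.01), Cx3cr1 (-4.27 ± 1.25), C1qb (-4.22 ± 1.19) and Cd68 (-4.04 ± 1.30) had larger estimates than Mpeg1 with larger errors. In 8 of the 10 genes all 1 day arrays lay below both 8 hours arrays, where 14.5% of all genes did so. The walls were unequal in this step. Mean Mpeg1 went from 14.51 to 13.70 in the dorsal and from 16.20 to 11.11 in the lateral wall. Dorsal means also moved little for Tyrobp (14.68 to 14.38) and Aif1 (13.53 to 13.32). Those of Csf1r, Cx3cr1, C1qa, C1qb, C1qc and Cd68 were clearly lower at 1 day in both walls. The step was not tested within a wall. The call of Mpeg1 was lost with the flagged spots kept (adjusted p = 0.276), with either 8 hours array or 1 day replicate 1 or 2 left out (0.089 to 0.329), and without any 4 days array or 7 days replicate 2 or 3 (0.0506 to 0.0546). Without 1 day replicate 3, the brightest of its time for every member but Aif1, 6 members were called lower, where 2.59% of all genes were called lower and 7.73% in either direction. Csf1r was also called without 14 days replicate 1 (0.0467), 2 (0.0232) or 3 (0.0462), and C1qb without 14 days replicate 1 (0.0272). Slide and time cannot be told apart for this step.

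From 1 to 2 days none of the 10 genes was called by limma, where 0.00378% of all genes were, and 6 of them had an unadjusted p under 0.05, as did 9.14% of all genes. The median difference was 3.00, against -0.16 over all genes. In 8 of the 10 all 2 days arrays lay above all 1 day arrays, where 10.8% of all genes did so. Without 1 day replicate 3, C1qa alone was called (5.97, adjusted p = 0.0297), where 0.423% of all genes were.

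The steps into and out of 4 days can be read within slides, because slides 3 and 4 each held an array of 2, 4 and 7 days, and slide 1 held the third array of 4 and of 7 days beside both arrays of 8 hours. Both steps use the same 3 arrays of 4 days. From 2 to 4 days each of the 10 genes was lower on both slides, and from 4 to 7 days each was higher on all 3 slides. Cx3cr1 differed by -3.60 and -3.05 (4 minus 2 days) and by 4.45, 3.49 and 4.40 (7 minus 4 days, slides 1, 3 and 4). C1qb differed by -3.03 and -4.34, and by 4.64, 2.95 and 4.89. Mpeg1 differed by -3.33 and -2.35, and by 3.55, 2.11 and 3.65.

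Across all 17 arrays, which share an estimate of the spread that includes the uneven 1 and 14 days arrays, no member was called in 4 minus 2 days, where 0.631% of all genes were called. Mpeg1 came nearest (-2.96 ± 0.61, adjusted p = 0.0521), and it was called without 1 day replicate 1 (0.0424) or 3 (0.0327) or 14 days replicate 1 (0.0405), 2 (0.0318) or 4 (0.0463). With its flagged spot kept Mpeg1 had an error of 1.36 and a limma adjusted p of 0.554 in this step. In 9 of the 10 genes all 4 days arrays lay below both 2 days arrays, where 16.1% of all genes did so, and the exception was Cd68. In 7 minus 4 days, Pf4 alone was called, where 0.068% of all genes were. Mpeg1 (3.11 ± 0.54, adjusted p = 0.0816) was called too without 14 days replicate 1 (0.0323) or 2 (0.0443) and, just under the threshold, without 1 day replicate 3, and C1qb (4.16 ± 1.07, 0.363) without 14 days replicate 1 (0.0466). With its flagged spot kept Mpeg1 had an error of 1.22 and a limma adjusted p of 0.923 in 7 minus 4 days. In all 10 genes every 7 days array lay above every 4 days array, where 6.35% of all genes did so. The median differences of the 10 genes were -2.57 and 3.14 in the 2 steps, against 0.10 and -0.05 over all genes.

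A fit of the 10 arrays of 8 hours, 2, 4 and 7 days with slide as a fixed block, added after the data had been seen and with 4 residual degrees of freedom, called 7 of the 10 genes lower at 4 than at 2 days, where 3.77% of all genes were called lower. These were C1qb (-3.81 ± 0.46 SE, limma adjusted p = 0.013), Cx3cr1 (-3.41 ± 0.36, 0.00977), Mpeg1 (-2.95 ± 0.54, 0.034), C1qc (-2.39 ± 0.50, 0.0473), Csf1r (-2.32 ± 0.43, 0.0336), C1qa (-2.29 ± 0.46, 0.0422) and Aif1 (-2.12 ± 0.31, 0.0202). Tyrobp (-1.64 ± 0.48, 0.105), Cd68 (-1.29 ± 0.44, 0.149) and Pf4 (adjusted p = 0.0541) did not pass. No Pf4 spot of 4 days was well above background, so that its differences from 4 days are given as bounds. The same fit called 9 of the 10 genes higher at 7 than at 4 days, where 1.2% of all genes were called higher. On the mean of both walls Pf4 was at least 287-fold higher (0.0112). C1qb rose by 4.16 ± 0.39 (0.0159), Cx3cr1 by 4.11 ± 0.31 (0.012), Csf1r by 3.46 ± 0.36 (0.0191), C1qa by 3.17 ± 0.39 (0.0257), Mpeg1 by 3.11 ± 0.46 (0.0405), Cd68 and C1qc by 2.70 (SE 0.38 and 0.42, 0.0342 and 0.047) and Aif1 by 1.93 ± 0.27 (0.0334), while Tyrobp stood at 2.07 ± 0.41 (0.0845).

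The same 10 arrays without the block called 8 genes lower, where 4.06% of all genes were, and 9 higher, where 1.26% were, and Pf4 in the first step (adjusted p = 0.0357) was the added call. With the block and 1 array left out, 0 to 6 of the 10 genes were called lower in 4 minus 2 days and 1 to 6 were called higher in 7 minus 4 days, and every gene kept its direction in each of these fits. The number of all genes called in the same fits, in either direction, was 109 to 1925 and 11 to 318. No member was called in 4 minus 2 days without 2 days replicate 1, where 109 of all genes were. Pf4 alone was called in 7 minus 4 days without either 8 hours array, where 11 of all genes were, or without 7 days replicate 2, where 20 were.

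**Figure D2:**
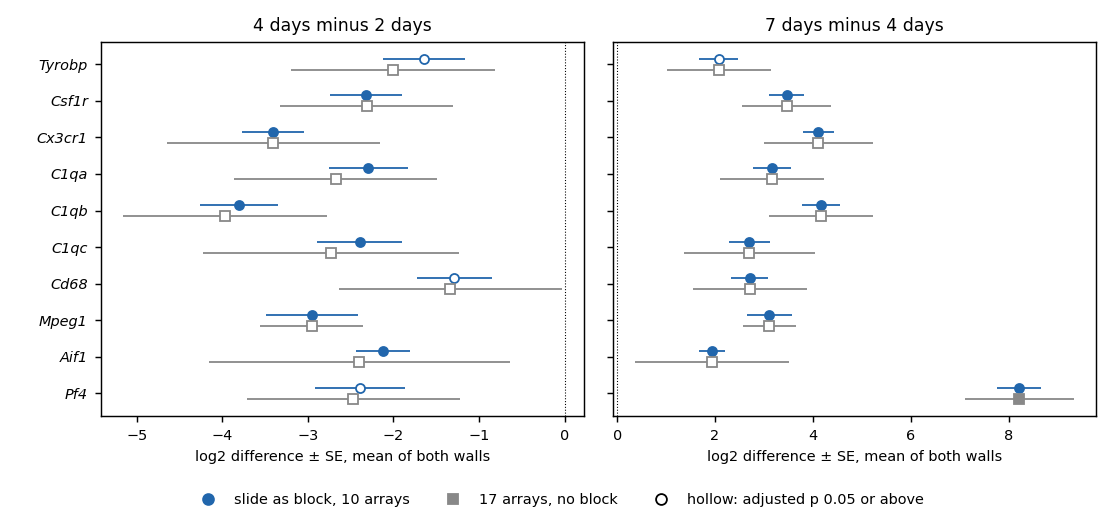
Log2 differences with standard errors (x axis) on the mean of both walls for each gene (y axis), 4 minus 2 days on the left and 7 minus 4 days on the right. Circles stand for the 10 arrays with slide as a block, squares for all 17 arrays without a block, and hollow marks for an adjusted p of 0.05 or above. All estimates are negative on the left and positive on the right. The marks of Pf4 use its signal at 4 days, which was not well above background, so they show measured signals and no exact change.

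Part of the genes of the related lists were called in the fit with slide as a block, where 3.77% of all genes were called lower in 4 minus 2 days and 1.2% higher in 7 minus 4 days. Without 7 days replicate 2 that fit called 20 of all genes in 7 minus 4 days, so the rises below need not all hold. The fit of all arrays called 167 of all genes in 4 minus 2 days and 18 in 7 minus 4 days. Which homeostatic, general myeloid and activated microglia genes kept their calls there is not given here. The calls below are those with slide as a block. Among 14 genes typical of homeostatic microglia, 6 fell from 2 to 4 days and 8 rose from 4 to 7 days, with medians of -2.05 and 2.93. P2ry13, a purine receptor, differed by -3.40 ± 0.40 and 4.47 ± 0.34, and Tmem119, a membrane protein used to tell microglia from other macrophages, by -2.81 ± 0.48 and 3.93 ± 0.41. Hpgds, a prostaglandin D synthase, differed by -2.77 ± 0.37 and 3.21 ± 0.32. Fcrls fell by 2.35 on the log2 scale in the first step, and the fructose transporter gene Slc2a5 rose by 3.36 in the second.

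Among 18 genes of general myeloid signalling and lysosomes, 7 fell and 7 rose, with medians of -2.11 and 2.52. Laptm5, a lysosomal membrane protein of blood cells, differed by -4.72 ± 0.62 and 5.16 ± 0.53, and Csf3r, a colony-stimulating factor receptor, by -3.00 ± 0.56 and 3.26 ± 0.48. Ly86 and the integrin gene Itgam fell by 2.89 and 2.51 in the first step, and the integrin gene Itgb2 and the transcription factor gene Irf8 rose by 3.07 and 2.98 in the second. Among 12 genes of activated, phagocytic microglia, 7 fell and 3 rose. Spp1, which encodes osteopontin, differed by -7.86 ± 0.68 and 6.81 ± 0.58, the growth factor gene Igf1 by -4.43 ± 0.60 and 5.73 ± 0.52, and the lipase gene Lpl by -3.86 ± 0.25 and 3.04 ± 0.22. The galectin gene Lgals3 fell by 3.69.

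Of 11 measured ligands and partners of the members, 2 fell from 2 to 4 days, the complement genes C4b and C1ra, by 3.33 and 3.13. Csf1, a ligand of the Csf1r product, rose by 2.70 from 4 to 7 days. Across all 17 arrays C4b was the one gene of this list that was called in 4 minus 2 days (-3.40 ± 0.41, adjusted p = 0.00329), and none was called in 7 minus 4 days. Among the 12 neural genes, Gfap (at least 104-fold in the dorsal wall, where no spot of 4 days was well above background) was lower and Stmn2 (2.86), Tubb3 (1.48) and Dcx (1.39) were higher at 4 than at 2 days, with 3 called in each direction, and none was called in 7 minus 4 days. Of the 8 monocyte and neutrophil genes, Ly6c2 (-4.53) and S100a8 (at least 14.8-fold in the dorsal and at least 7.80-fold in the lateral wall) were lower at 4 than at 2 days and none was called in the later step, with medians of 0.01 and 0.06. No lymphocyte, endothelial or erythroid gene was called in either step. Their medians were 0.19, -0.18 and -0.71 in 4 minus 2 days and -0.07, 0.64 and 1.09 in 7 minus 4 days. The part of these other cells in the steps was not tested.

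Pf4 moved in the same directions as the other members up to 7 days, but was far dimmer before 7 days than at 7 and 14 days. It had 7.53 and 8.65 on the 8 hours arrays, 6.16, 6.60 and 8.33 on those of 1 day, a mean of 8.61 ± 0.55 (SD, n = 2) on those of 2 days, 6.32, 6.16 and 5.92 on those of 4 days, 13.47, 15.34 and 14.24 on those of 7 days, and 16.18, 11.95, 13.14 and 10.24 on those of 14 days. All 7 arrays of 7 and 14 days lay above all 10 arrays of the earlier times. No Pf4 spot was well above background at 4 days, so the level there is a bound, and at 7 days Pf4 was at least 400.0-fold higher in the dorsal and at least 206-fold higher in the lateral channel. At 14 days it was at least 57.6-fold higher than at 4 days in the dorsal and at least 185-fold higher in the lateral channel. The dorsal bound was 157-fold without 14 days replicate 4 and 23.1-fold without replicate 1, and the lateral bound was 100.2-fold without replicate 1. With any 1 array left out, the bounds at 7 days lay between 289-fold and 570-fold in the dorsal and between 143-fold and 266-fold in the lateral channel.

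In the fit of 17 arrays Pf4 was called higher at 7 than at 4 days (limma adjusted p = 0.023), and its signal was higher on all 3 slides. That call was lost without any single array of 8 hours, 4 days or 7 days, with adjusted p between 0.051 and 0.146. In the fit with slide as a block it was kept without any single array, with adjusted p between 0.0143 and 0.039.

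Genes of border macrophages shared that step. The 10 genes of that list had a median difference of 4.26 in 7 minus 4 days, all in the same direction, and 5 were called with slide as a block, while in 4 minus 2 days none was called in that fit and the median was -1.08. The median of the later step was the same with Lyve1 and Cd163, which had no spot well above background at 4 days, at their bounds. They included F13a1, a coagulation factor subunit (adjusted p = 0.0112), the carbonyl reductase gene Cbr2 (6.25 ± 0.59, 0.0159), Ms4a7 (5.77 ± 0.72, 0.0269) and the mannose receptor gene Mrc1 (5.15 ± 0.69, 0.0313). In the dorsal wall no F13a1 or Clec10a spot of 4 days was well above background, and there F13a1 was at least 222-fold and Clec10a at least 42.6-fold higher at 7 days. Across all 17 arrays none of the 10 was called, and Clec10a (adjusted p = 0.148) and F13a1 (0.219) had the smallest p. Lyve1, a hyaluronan receptor, averaged 10.31 at 7 days, and was at least 17.6-fold higher there than at 4 days.

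The platelet and megakaryocyte genes did not share it as a group, with a median difference of -0.13 over 6 genes. Of these Gp9 was at least 3.64-fold higher at 7 days, where 4 of 6 samples were well above background, than at 4 days, where none was. It was called in the 10 arrays of 8 hours, 2, 4 and 7 days with slide as a block (adjusted p = 0.012) and without it (0.00216), and not across all 17 arrays (0.341). Itga2b, the gene of platelet integrin alpha IIb, averaged 8.53 at 7 days, against 8.73 at 4 days. The summed intensity of the 6 platelet genes lay between 1756 and 5648 at 7 days, and between 1592 and 5825 at 4 days. Their part in the level of Pf4 was not tested.

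**Figure D3:**
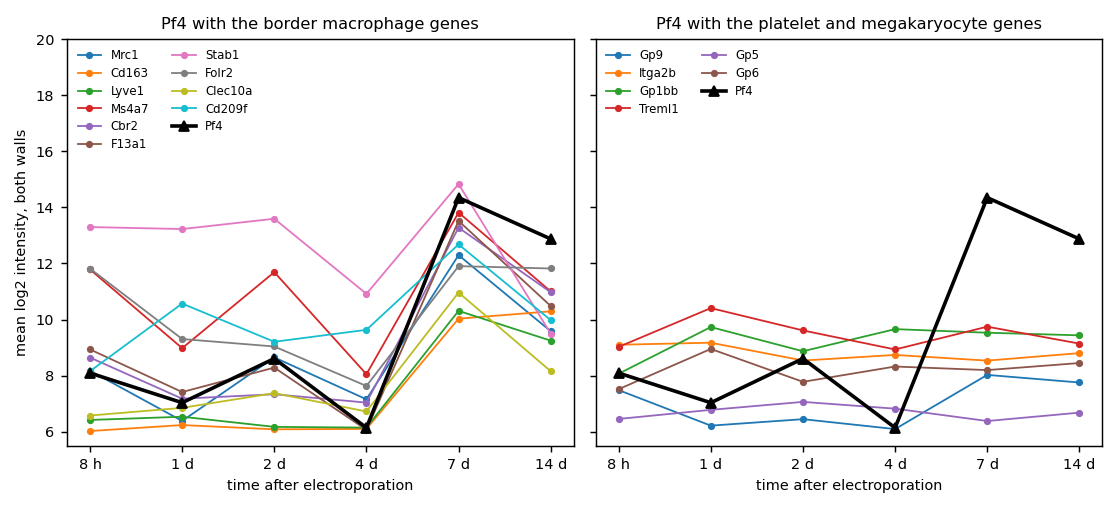
Mean log2 intensity over both walls and all arrays of a time (y axis) against the time after electroporation (x axis), for Pf4 in black with the border macrophage genes on the left and with the platelet and megakaryocyte genes on the right. Pf4 and the border macrophage genes step up between 4 and 7 days, while of the platelet genes Gp9 alone differs by more than 1 on the log2 scale between those times, and the signals of Pf4, Lyve1, Cd163 and Gp9 at 4 days were not well above background.

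From 7 to 14 days Mpeg1 alone was called by limma, where 0.651% of all genes were (-4.94 ± 0.54, adjusted p = 0.0048). Cd68 (-4.89 ± 1.16, 0.0939) was called without 1 day replicate 3 (0.0391) or 14 days replicate 3 (0.0448). With the flagged spot of Mpeg1 kept its difference was -3.52 ± 1.14 and was not called (0.228). The median of the 10 genes was -2.55, against 0.08 over all genes. None of the 5 genes measured on all arrays had groups that did not overlap, where 4.63% of all genes were lower and 8.99% higher without overlap. The samples of 14 days replicate 1 were the brightest of their time for Tyrobp, Cx3cr1, C1qb, Aif1 and Pf4.

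Between 14 days and 8 hours within the dorsal wall, Mpeg1 fell (-5.65 ± 0.55, limma adjusted p = 0.000281), where 1.48% of all genes were called (1.2% lower and 0.288% higher), and with its flagged spot kept the difference was -3.87 ± 1.55 (0.33). Its dorsal levels were 9.21, 9.12 and 8.23 at 14 days, against 14.59 and 14.43 at 8 hours. Within the lateral wall 3 of the 10 genes were called, where 2.17% of all genes were (1.11% lower and 1.06% higher). Mpeg1 had 8.91, 10.78 and 13.30 at 14 days, against 15.83 and 16.57 at 8 hours (-5.20 ± 1.13, adjusted p = 0.034). Cd68 had 7.20, 11.05 and 11.09 at 14 days, against 15.40 and 15.47 at 8 hours (-5.66 ± 1.14, 0.0223).

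Both of these lateral falls were lost with the flagged spots kept, at -4.14 (adjusted p = 0.182) for Mpeg1 and -4.26 (0.255) for Cd68. Pf4 had 16.37, 13.15, 12.56 and 12.78 in the lateral wall at 14 days, against 6.92 and 8.72 at 8 hours, and rose by 5.90 ± 1.07 (adjusted p = 0.00975). All its lateral samples of 14 days lay above both of 8 hours. In the dorsal wall Pf4 had 15.99, 10.75, 13.72 and 7.69 at 14 days, against 8.15 and 8.58 at 8 hours, and the difference of 3.68 ± 1.59 did not pass (0.361). Without 8 hours replicate 1 no lateral gene was called (0.166 to 0.176 for Cd68, Mpeg1 and Pf4), and without 8 hours replicate 2 Pf4 alone was (0.0391). The lateral call of Mpeg1 was also lost without either 2 days array, 4 days replicate 2 or 3, 7 days replicate 2, or 14 days replicate 2 or 3 (0.0502 to 0.0851). In the dorsal wall Cd68 (-5.13 ± 1.73, 0.228) was called without 14 days replicate 3 (0.0499). The 14 days arrays lay on a slide of their own.

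Of 8 measured monocyte and neutrophil genes, 4 fell in the dorsal wall and 3 in the lateral wall. S100a9 and S100a8, which encode the calprotectin subunits of neutrophils, had no spot well above background at 14 days. They were at least 254-fold (adjusted p = 0.00122) and at least 213-fold lower (0.00654) in the dorsal wall, and at least 291-fold (0.00378) and at least 210.1-fold lower (0.0247) in the lateral wall. Retnlg fell by 5.96 and 6.52 in the dorsal and lateral wall, and Ngp, a neutrophil granule gene, fell by 2.24 in the dorsal wall. All 8 monocyte and neutrophil genes were well above background in every sample of 8 hours, and 2 to 6 of them were at 4 days. The summed intensity of these 8 genes lay between 55736 and 79212 on the 8 hours arrays, 1238 and 48052 on those of 1 day, 1776 and 20576 on those of 2 days, 855 and 1179 on those of 4 days, 1027 and 9482 on those of 7 days, and 1783 and 16953 on those of 14 days. No lymphocyte or platelet gene was called in either wall, with medians of 0.65 and 0.68 for 8 lymphocyte genes and of 0.47 and 0.66 for 6 platelet genes in the dorsal and lateral wall.

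C3ar1, the receptor for complement fragment C3a, fell between 8 hours and 14 days in both walls (-4.52 ± 0.96, adjusted p = 0.0323, in the dorsal wall and -5.31 ± 1.14, 0.0275, in the lateral wall). Among the activated microglia genes, Gpnmb, which had no dorsal spot well above background at 14 days (at least 123-fold lower, 0.0129), and Itgax (-4.62 ± 0.68, 0.00363) fell in the dorsal wall and Lpl (-5.77 ± 1.16, 0.0191) in the lateral wall. Fcrls was the one homeostatic microglia gene that fell, in the dorsal wall (-4.81 ± 0.98, 0.0301). Spi1 (-4.65 ± 1.02, 0.0302) and Cd14 (-4.86 ± 1.11, 0.0394) fell in the lateral wall. None of the 10 border macrophage genes was called in either wall, with medians of 1.46 in the dorsal and 1.92 in the lateral wall. Of the neural genes, Dlx2 rose in the dorsal wall by 5.23 ± 0.71 (0.002), and Dcx, Tubb3, Dlx2 and Sox11 rose in the lateral wall by 1.64 to 4.83.

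None of the 10 genes was called between the walls at any time or on the mean of the 6 times in the fit without a block after loess, and 2 of the alternatives below called some. By limma, 2.38% of all genes were called on the mean of the times (1.29% higher and 1.09% lower in the dorsal wall). The share was 0.378% for the 8 hours arrays (0.28% higher, 0.0983% lower), 1.1% for those of 1 day (0.692% higher, 0.412% lower) and 0.181% for those of 2 days (0.147% higher, 0.034% lower). For the later times it was 0% on the 4 days arrays, 0.0265% on those of 7 days (0.0227% higher, 0.00378% lower) and 0.0227% on those of 14 days (0.00379% higher, 0.0189% lower). At an unadjusted p under 0.05, 4 members passed at 14 days (C1qa, Mpeg1, Tyrobp and Pf4), 2 at 1 day (C1qa and Mpeg1), 2 at 4 days (C1qa and C1qc) and none at the other times or on the mean. The share of all genes at an unadjusted p under 0.05 was 10.3% at 14 days, 16.1% at 1 day, 5.47% at 4 days, 7.34% at 8 hours, 7.87% at 2 days, 5.15% at 7 days and 16.3% on the mean. With the flagged spots kept, the unadjusted limma p of Mpeg1 at 14 days was 0.0933 and that of C1qa on the mean was 0.0442. Median centring of the log ratios in place of loess, which moved the median of all genes to -0.38 at 14 days and to -0.21 on the mean of the times, called Tyrobp, C1qa and Pf4 lower in the dorsal wall at 14 days, where it called 5.36% of all genes lower, and Cx3cr1 lower on the mean, where it called 16.8% lower. Slide as a random block had a negative estimated correlation (-0.17). In either direction it called 2545 of all genes at 1 day and 2139 at 14 days, against 292 and 6 without the block. This block called Mpeg1 higher in the dorsal wall at 1 day (adjusted p = 0.0261), where it called 5.61% of all genes higher. At 14 days it called Tyrobp (0.0209) and C1qa (0.0477) lower, where it called 5.16% lower.

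The sign of the wall difference was shared by most members on many arrays, and it was not the same at all times. The median over the 10 genes, dorsal minus lateral, was -1.33 for 8 hours, 0.37 for 1 day, 1.26 for 2 days, 0.99 for 4 days, 0.83 for 7 days and -1.63 for 14 days, while the median over all genes stayed between -0.02 and 0.02. On the 8 hours arrays 9 and 10 of the 10 genes were lower in the dorsal channel, and on the 2 days arrays 10 and 9 were higher there. On the 7 days arrays 10, 9 and 5 were higher in the dorsal channel, and on 14 days replicate 4 all 10 were lower, against 4 of 5 on replicate 1 and 6 of 10 on each of replicates 2 and 3. Without 14 days replicate 4 the median of that time was -0.70. The median was also moved by over 1.5 times without 1 day replicate 1 (0.99) or 2 (-0.11), 2 days replicate 1 (0.67), 4 days replicate 3 (0.41) or 7 days replicate 1 (0.50).

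Pf4 was the exception on 8 hours replicate 1, with 8.15 in the dorsal and 6.92 in the lateral channel. Over all genes, the share with the same sign on every array of a time, higher and lower in the dorsal channel, was 29.7% and 34.6% for 8 hours, 15.9% and 16.3% for 1 day, and 31.9% and 32.7% for 2 days. It was 16% and 14.1% for 4 days, 14.9% and 17% for 7 days, and 7.4% and 8.41% for 14 days. The members with 1 sign on every array were 9 lower ones for 8 hours (all but Pf4) and 9 higher ones for 2 days (all but Cx3cr1). They were 2 higher ones for 1 day (C1qa and Mpeg1), 4 higher ones for 4 days (C1qa, C1qc, Tyrobp and Aif1), 5 higher ones for 7 days (C1qa, C1qb, C1qc, Csf1r and Pf4) and 4 lower ones for 14 days (C1qa, C1qc, Cx3cr1 and Tyrobp). C1qa and C1qc were measured on 3 arrays of 14 days, while the shares for 14 days are over genes measured on all 4. The F test of a change of the wall difference over the 6 times called none of the 10 genes, where 0.0984% of all genes were called, and C1qa had the lowest adjusted p, 0.294. With slide as a random block C1qa was called (0.0429), where 2% of all genes were.

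**Figure D4:**
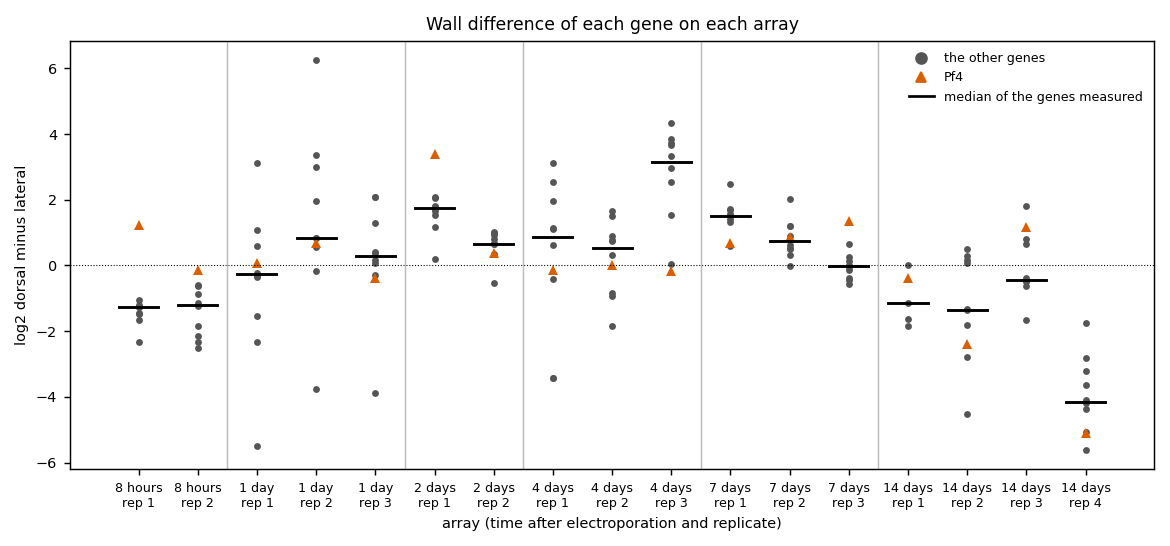
Log2 dorsal minus lateral difference (y axis) of each gene on each of the 17 arrays (x axis), with Pf4 as triangles and the median of the measured genes as a bar. The bars lie below 0 on both 8 hours arrays and on all 14 days arrays, above 0 on the 2 and 4 days arrays, and lowest, at -4.14, on 14 days replicate 4.

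Tyrobp had 14.39 and 14.98 in the dorsal wall at 8 hours, against 16.71 and 16.81 in the lateral wall, a difference of -2.08 ± 1.56 (SE, limma adjusted p = 1). At 14 days it had 15.38, 11.20, 14.32 and 8.93 in the dorsal wall, against 17.22, 15.73, 14.79 and 14.54 in the lateral wall (-3.12 ± 1.11, adjusted p = 0.333). On every array of both times the dorsal channel was the lower one, and at 14 days the 2 ranges overlapped. At 4 days Tyrobp had 15.30, 15.37 and 14.46 in the dorsal wall, against 14.19, 13.86 and 10.80 in the lateral wall (2.09 ± 1.28, adjusted p = 1), with the dorsal channel the higher one on every array.

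C1qa had 13.84, 14.03 and 13.32 in the dorsal wall at 4 days, against 11.31, 13.13 and 8.99 in the lateral wall, a difference of 2.59 ± 0.67 (limma adjusted p = 0.725). At 14 days it had 9.82, 13.69 and 9.41 in the dorsal wall, against 11.15, 14.08 and 13.52 in the lateral wall (-1.94 ± 0.67, adjusted p = 0.326), and the difference was -1.69 ± 0.57 (0.292) with its flagged spot kept. At 4 days every array had the higher value in the dorsal channel, and at 14 days every measured array had the lower value there. At 1 day C1qa had 9.22, 10.59 and 14.15 in the dorsal wall, against 8.14, 8.63 and 12.08 in the lateral wall (1.71 ± 0.67, adjusted p = 0.236).

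Mpeg1 at 1 day had 13.50, 13.59 and 14.02 in the dorsal wall, against 10.38, 10.23 and 12.72 in the lateral wall (2.59 ± 0.84, limma adjusted p = 0.157), and the dorsal channel was the higher one on every array. C1qc at 1 day had 9.55, 6.61 and 13.27 in the dorsal wall, against 15.06, 6.04 and 13.55 in the lateral wall (-1.74 ± 0.90, adjusted p = 0.373), and 1 day replicate 1 decided its sign, since the difference was 0.14 without it. Cx3cr1 at 8 hours had 11.68 and 10.64 in the dorsal wall, against 12.93 and 13.14 in the lateral wall (-1.88 ± 1.25, adjusted p = 0.962), and its mean over the 6 times was -0.89 ± 0.44 (adjusted p = 0.34). Pf4 at 2 days had 9.90 and 9.19 in the dorsal wall, against 6.53 and 8.81 in the lateral wall (1.88 ± 1.07, adjusted p = 0.784).

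Of the related genes, C1ra, which encodes the protease that C1q activates, was higher in the dorsal wall on the mean of the 6 times (1.79 ± 0.28, limma adjusted p = 0.00711) and at 1 day (3.87 ± 0.64, 0.0173). Folr2, a folate receptor of border macrophages, was higher there on the mean (1.76 ± 0.24, 0.00422), as was Cd9, a tetraspanin of activated microglia and other glia (0.82 ± 0.12, 0.00591). No homeostatic microglia gene or general myeloid gene was called between the walls on the mean. Hbb-bt, a beta globin of red cells, was higher in the dorsal wall on the mean (3.70 ± 0.51, 0.00837), and the summed intensity of 6 erythroid genes lay between 25222 and 1141608 at 8 hours and between 2553 and 95335 at 4 days. The part of blood in the values of the 10 genes was not tested.

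Across the 34 samples (17 arrays, both walls) the 10 genes went up and down together, with Pf4 least bound to the rest. The samples share arrays, time points and normalization, and the correlations are a description. The 36 pairs without Pf4 had a Pearson r of 0.44 to 0.88, with a median of 0.75, and the 9 pairs with Pf4 had 0.19 to 0.72, with a median of 0.39. The highest pair was Csf1r with C1qa at 0.88. Against the mean of the other members, C1qb had the highest r (0.93) and Pf4 the lowest (0.53).

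The non-members most like the mean of the 10 genes over these samples were a probe without a gene name (A_51_P405478, r = 0.92), the lipid-sensing receptor gene Trem2 (0.90), Fcer1g (0.90, an adaptor of Fc receptors), Lcp1 (0.89), Csf3r (0.89), the RNA sensor gene Tlr7 (0.88), a second probe without a gene name (A_51_P328613, 0.88), the protease gene Ctss (0.87), P2ry13 (0.86) and Unc93b1 (0.86). Of the 10, Trem2, Ctss and P2ry13 stood in the homeostatic microglia list, and Fcer1g and Csf3r in the general myeloid list. Among the 10 most like Pf4 alone were Lyve1 (0.85), Cbr2 (0.85), Fcgrt (0.85), the scavenger receptor gene Cd163 (0.83), F13a1 (0.82), Serpinf1 (0.82), Mrc1 (0.80), Clec10a (0.80) and Apod (0.80), a ranking made after the data had been seen. Of the genes named, 6 stood in the border macrophage list and none in the platelet list.

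Of the 4 genes with more than 1 probe, the second probe of Aif1 followed the first with r = 0.92 and that of Mpeg1 with 0.79. The other Csf1r probes followed with 0.93 and 0.63. The second Cx3cr1 probe followed with 0.57 and was dim, between 6.77 and 8.98 on the mean of a wall at every time except the dorsal wall at 7 days, where it averaged 9.69.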

How the data were processed

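The authors read each spot's intensity, on a linear scale, with Agilent Feature Extraction in its releases 10.5.1.1 and 10.7.3.1, per the file headers. Their value table is on a log2 scale, dorsal over lateral, as deposited. This was read from its fit to the log10 red to green ratios that the authors deposited: r was -0.90 to -0.97 and the slope -3.26 to -3.31, where log2 values give -3.32. Its column medians lay between -0.16 and 0.05, and how it was normalized is not stated in the sources used here.

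In R 4.3.3 with limma 3.58.1, mean signals and median local backgrounds were corrected with normexp (offset 50), normalized by loess within arrays (control spots at weight 0) and by Aquantile between arrays. Outlier-flagged spots were treated as missing, and repeated spots of 1 probe were averaged. The brightest probe stood for its gene, and probes well above background on at least 2 arrays were kept. Models had a mean per time point, Benjamini-Hochberg adjustment ran over all 26458 genes (26414 in comparisons with 14 days), and the threshold was 0.05. Names came from RefSeq by accession for 26876 probes and by symbol or synonym for 3241, while 11057 kept the name in the files. The fit was tested on simulated data. The p-values measure the spread between arrays, whose number limits the precision.

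All 10 genes are named with their levels. From each other list up to 4 called genes with the largest differences are named, and where none was called up to 2 with the smallest p, in the comparisons where that list is described. The 10 genes most like the mean of the members are named too. The members and lists were chosen with earlier results of these data known. Some genes that these rules name are not reported here. C1s, Ly6g and Ppbp of the lists were not measured above the filter. Alternatives were the scanner software's processed intensity signals as deposited, quantile normalization or median centring, the mean over probes, no filter on dim probes, slide as a random or fixed block, the replicate number as a block, the deposited value table, the flagged spots kept, and leaving out arrays. Figures were drawn with Python 3.11.15 and matplotlib 3.10.9.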

Additional observations from a re-analysis of the deposited data

Results flagged for a closer look

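In the lateral wall at 14 days, Pf4 stood at 16.37 on 14 days replicate 1, against 12.56 to 13.15 on the other 3 arrays, and was set apart by its distance from them. In a group of this size, chance sets a sample this far apart in about 1 of 20 groups. The sample was found by a search and not chosen beforehand, so that rate applies to each group searched. The number of groups searched is not given here. The array also held the brightest Tyrobp, Cx3cr1, C1qb and Aif1 samples of its time.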

How the results depend on the processing

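No member was called in a wall difference in any of the fits that left out 1 array. The number of members called in the other comparisons changed with the processing as follows, against the values in the text, each given with the share of all genes called in the same fit. With the scanner software's processed signals 0 members were called in 1 day minus 8 hours (0.571% of all genes) and 1 in the lateral wall in 14 days minus 8 hours (1.47%), and with the mean over probes 0 in 1 day minus 8 hours (1.36%). Median centring called 1 in the mean wall difference (23.3%) and 3 at 14 days (5.43%), and turned C1qa on the mean of the times to -0.37. Quantile normalization called 1 in 4 minus 2 days (0.695%). Over the 6 times Cx3cr1 was lost with the processed signals (limma F test adjusted p = 0.0547), where 1596 of all genes were called. It was also lost with the mean over probes (0.0985) and without both arrays that stand apart (0.0896). C1qa was lost with no filter (0.0517), the replicate block (0.0803) and without both those arrays (0.0623), and C1qb with no filter (0.0579). Slide as a random block added C1qc (0.025), Cd68 (0.000798) and Tyrobp (0.0429), where 12601 were called.

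Slide as a random block, whose estimated correlation was negative (-0.17 to -0.24), called 1 at 1 day (9.62%), 2 at 14 days (8.1%) and 1 in the change of the wall difference (2%), 7 in 1 day minus 8 hours (25.5%), 4 in 14 minus 7 days (3.79%) and 5 in the dorsal wall in 14 days minus 8 hours (14.1%). As a fixed block it called 7 in 4 minus 2 days (6.27%) and 9 in 7 minus 4 days (1.52%), and the same 10 arrays without it called 8 (6.76%) and 9 (1.53%). Without both arrays that stand apart, 2 were called in 1 day minus 8 hours (2.45%), 1 in 4 minus 2 days (2.41%) and 2 in 7 minus 4 days (0.166%), and C1qc at 1 day was 0.14. With the flagged spots kept, 3 were called over the 6 times (7.33%), 0 in 1 day minus 8 hours (1.37%), 0 in 14 minus 7 days (0.635%), and 0 (1.39%) and 1 (2.17%) in 14 days minus 8 hours in the dorsal and lateral wall. The cause of these changes was not tested.

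The replicate number did not pair the samples: deviations of same-numbered arrays correlated at -0.13 to 0.32 (median 0.02), over 0.1 in 5 of 36 pairs. As a replicate block it called 2 in 1 day minus 8 hours (2.94%) and turned Cx3cr1 in 14 minus 7 days to 0.028.

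Leaving out 1 array gave 2 to 7 members over the 6 times, 0 to 6 in 1 day minus 8 hours, 0 to 1 in 2 days minus 1 day, 0 to 1 in 4 minus 2 days, 0 to 3 in 7 minus 4 days, 1 to 2 in 14 minus 7 days, and 1 to 2 and 0 to 3 in 14 days minus 8 hours in the dorsal and lateral wall. It turned the sign of Pf4 at 8 hours (-0.14 to 1.23), C1qc at 1 day (-2.89 to 0.14), Aif1 in 1 day minus 8 hours (-2.23 to 0.36) and Cx3cr1 in 14 minus 7 days (-1.54 to 0.028). The arrays left out were 8 hours replicate 1, 1 day replicate 1, 1 day replicate 2 and 14 days replicate 4, in that order. Of 140 signed values of the members, 26 changed sign in at least 1 such fit, none of them called. The largest by size was C1qc at 1 day, and the next was Tyrobp at 1 day (1.44, and -0.96 without 1 day replicate 2). Groups of 2 to 4 arrays, the spread at 1 and 14 days, and the dim dorsal signals at 14 days limit all comparisons.

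Counts over all genes moved by more than 1.5 times, and the ranges here are over the alternatives other than leaving out 1 array. On the mean wall difference 629 genes were called in the text, against 6 with the replicate block and 6143 with median centring. At 8 hours, 1 day and 14 days the counts were 100, 292 and 6, with 6 (value table), 33 (processed signals) and 0 (replicate block) at the low end and 392, 2545 and 2139 with slide as a random block. They were 48 (1 to 70) at 2 days, 7 (0 to 8) at 7 days and 26 (0 to 529) in the change of the wall difference. Over the 6 times 1990 were called, and 12601 with the random block. The counts were 377 (151 to 6751) in 1 day minus 8 hours, 1 (0 to 22) in 2 days minus 1 day, 167 (95 to 1789) in 4 minus 2 days, 18 (11 to 406) in 7 minus 4 days, 172 (80 to 1000) in 14 minus 7 days, and 392 (278 to 3713) and 572 (388 to 3878) in the dorsal and lateral wall in 14 days minus 8 hours. Leaving out 1 array gave 213 to 1152 on the mean wall difference, 39 to 235 at 2 days, 0 to 3 at 4 days (0 in the text), 1 to 19 at 7 days, 1048 to 2586 over the 6 times, 49 to 2044 in 1 day minus 8 hours, 0 to 112 in 2 days minus 1 day, 19 to 332 in 4 minus 2 days, 0 to 90 in 7 minus 4 days, 32 to 457 in 14 minus 7 days, and 76 to 607 and 260 to 1094 in 14 days minus 8 hours in the dorsal and lateral wall. At 8 hours, 1 day and 14 days and in the change of the wall difference it stayed within the ranges given first.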
